A study of Mus musculus with 4 samples.

Results

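The comparison described here set mouse embryonic stem (ES) cells kept for 12 h in fibroblast growth factor 2 (FGF2, 10 ng/ml) and leukaemia inhibitory factor (LIF) against the same cells kept for 12 h in PD0325901 and LIF. PD0325901 inhibits the kinase MEK and so blocks the activation of ERK. Both cultures were of the line OG2, in which green fluorescent protein is driven by Pou5f1 sequences, and both came from gelatin-coated dishes, where LIF (1000 U/ml), PD0325901 (1 µM) and the GSK3 inhibitor CHIR99021 (3 µM) had been in the KSR medium. The labels name CHIR99021 in neither of the media after the switch, and they give no dose there for PD0325901 or LIF. LIF was present on both sides, and FGF2 took the place of the MEK inhibitor, so adding the one and removing the other cannot be told apart. A further pair of cultures received FGF2 or PD0325901 beside 1 µM JAK inhibitor I in place of LIF. There was 1 Illumina bead array for each of the 4 conditions. No difference below therefore has a replicate or a test, and 1 array a side limits the precision. A gene was taken as detected on an array where its detection p was under 0.01, and the genes described are the 7872, of 16593 with a named probe, that were detected on 1 or both of the 2 LIF arrays. A small detection p marks a probe brighter than nearly all negative controls. The 65 genes just inside that limit, at 0.00877, had a brighter signal between 92.6 and 94.8. The 171 genes just outside it had one between 91.4 and 94.8.

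FGF receptors signal through Ras, Raf and MEK to ERK. ERK activity induces immediate early transcription factors, and also its own inhibitors, the dual-specificity phosphatases and the Sprouty and Spred proteins. In mouse ES cells this pathway is known for moving cells out of the naive state, while LIF, acting through JAK kinases and STAT3, helps to hold them in it.

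The signal of a probe is its mean bead intensity as deposited, given with the standard error over its beads, which covers the beads of 1 array only. Log2 differences are FGF2 minus PD0325901 after background correction and quantile normalization of all 4 arrays, with the bead errors carried over. "Higher" and "lower" refer to the FGF2 array. Of the 7872 genes, 57 (0.724%) were at least 2-fold higher with FGF2 and 46 (0.584%) at least 2-fold lower, 103 (1.31%) in all. At 1.5-fold 463 genes (5.88%) were higher and 326 (4.14%) lower, 789 (10.0%) in all. The middle 95% of genes lay between −0.70 and 0.73 on the log2 scale, and the median was −0.01. All 103 genes past 2-fold differed by more than 2 bead standard errors. Of them, 30 were detected on only 1 of the 2 arrays (11 of the higher and 19 of the lower), and such genes are given below as "at least N-fold", measured against the detection limit of the other array. That bound reached 2-fold for 3 of the 11 and for 6 of the 19. A further 3 probes without a gene symbol were at least 2-fold higher and 5 lower. The share of higher genes among those past 2-fold was 55.3%, but 77.3% with median scaling and 81.5% without normalization between arrays, which also moved the median of all genes to 0.12 and 0.15. It was 73.1% without background correction and 65.8% with an offset of 50, where 26 and 38 genes passed 2-fold.

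**Figure D1:**
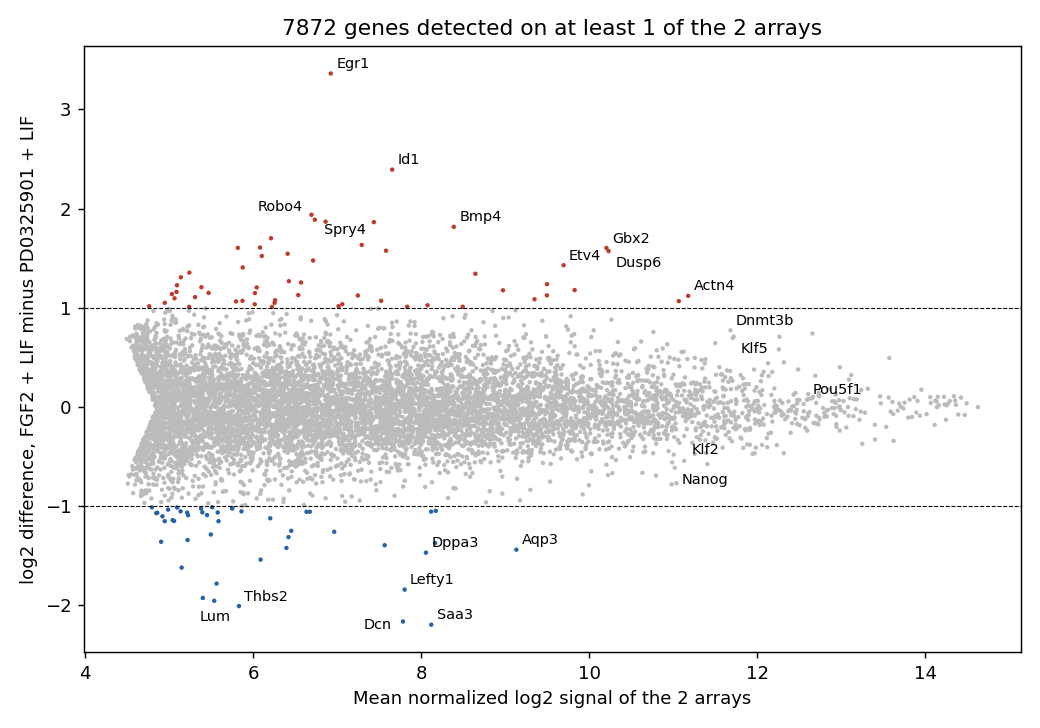
Log2 difference between the FGF2 + LIF and PD0325901 + LIF arrays (vertical axis) against the mean normalized log2 signal of both (horizontal axis), 1 point a gene, with genes at least 2-fold higher in red, at least 2-fold lower in blue and dashed lines at 2-fold. Egr1, at 3.36, stands above all other genes, and 57 red and 46 blue points lie beyond the lines.

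The immediate early factor Egr1, a zinc finger protein whose gene is a standard readout of ERK activity, differed most of all genes. Its signal (probe ILMN_2662926) was 100.6 ± 3.96 with PD0325901 and 474.6 ± 13.4 with FGF2. After normalization this was a 10.3-fold difference, or 3.36 ± 0.17 on the log2 scale (bead error). The PD0325901 signal was near the background, so the size depends on its correction. Over the alternative settings the log2 difference ranged from 2.14 to 4.10. Phlda1, a pleckstrin homology-like protein gene that ERK signalling induces, stood at 291.9 ± 11.8 and 733.9 ± 25.8, a log2 difference of 1.34 ± 0.09. Both genes were high on the 2 arrays with FGF2 and low on the 2 with PD0325901, as the plot of 12 higher genes on all 4 arrays shows. Of the 23 immediate early genes listed, 12 were detected, and these were the 2 past 2-fold. The AP-1 gene Junb (0.60) and the mRNA decay factor gene Zfp36 (0.61) were higher by 1.5-fold. Fos stood at 0.51 and Myc at 0.42, both at signals close to the background. Jun stood at 0.26, Srf at 0.30 (0.99 on its other probe) and Klf6 at −0.47. The median of the 12 was 0.36.

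Among the phosphatases that dephosphorylate MAP kinases, Dusp6 and Dusp4 were at least 2-fold higher and the others stayed under 1.5-fold. Dusp6 (ILMN_2925711), a cytoplasmic phosphatase specific for ERK, gave a signal of 708 ± 29.4 with PD0325901 and 2207 ± 56.2 with FGF2. Dusp4 (ILMN_2689731), its nuclear relative, gave 165.9 ± 7.85 and 414.4 ± 17.3. Each was 2.98-fold higher. Their further detected probes gave log2 differences of 1.11 to 1.56 for Dusp6 and 0.82 to 1.29 for Dusp4. Of the 7 detected members of 11, Dusp1 stood at 0.35, Dusp7 at 0.30, Dusp8 at 0.27 with a signal detected only with FGF2, Dusp16 at 0.01 and Dusp14 at −0.13. The list's median was 0.30.

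Of the adaptor-type inhibitors, Spry4 (ILMN_2825817) had a signal of 115.9 ± 4.70 with PD0325901 and 278.2 ± 19.1 with FGF2, a log2 difference of 1.89 ± 0.19. Its Sprouty domain protein acts between the receptor and Raf. Spred1, a membrane-bound inhibitor of Ras activation, stood at 0.79, and Errfi1, an inhibitor of EGF receptor kinases, at 0.60. Spred2 was detected only with FGF2 (0.55), and Il17rd, which encodes the FGF antagonist Sef, stood at 0.29. Of the 7 members detected of 11, 1 passed 2-fold and 3 passed 1.5-fold.

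Of the ETS factors, Etv4 was the only one of 12 detected members past 2-fold in the higher direction. Its signal (ILMN_2778111) was 528.1 ± 20.8 with PD0325901 and 1492 ± 52.3 with FGF2 (log2 1.43 ± 0.08). Its close relative Etv5 stood at 0.43 ± 0.17, with signals of 462.6 ± 28.4 and 682.2 ± 55.3, and Etv1 at 0.23. In the other direction, the ETS gene Spic, known as a marker of the naive ground state, was detected with PD0325901 (109.8 ± 4.08) but not with FGF2 (79.6 ± 3.05), at least 1.68-fold lower. Elf3, an epithelial ETS factor, stood at −0.78.

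The upstream parts of the pathway differed less. None of the 9 detected genes for FGF ligands, receptors and their binding partners passed 1.5-fold, with Fgfr1 at 0.52, the co-receptor gene Klb at 0.48, Fgf4, the ES cells' own ligand, at −0.12 (up to 0.06 in alternative settings) and the glypican gene Gpc3 at −0.31. Fgf5 was not detected on either array. Of 13 detected Ras, Raf, MEK and adaptor genes, 0 passed 2-fold. The adaptor gene Shc1 was highest at 0.55 (0.07 on its other probe). Rras, a Ras family gene, was lowest of those detected on both arrays at −0.58. Map2k1, which encodes MEK1, was detected only with PD0325901 and was at least 1.31-fold lower with FGF2.

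**Figure D2:**
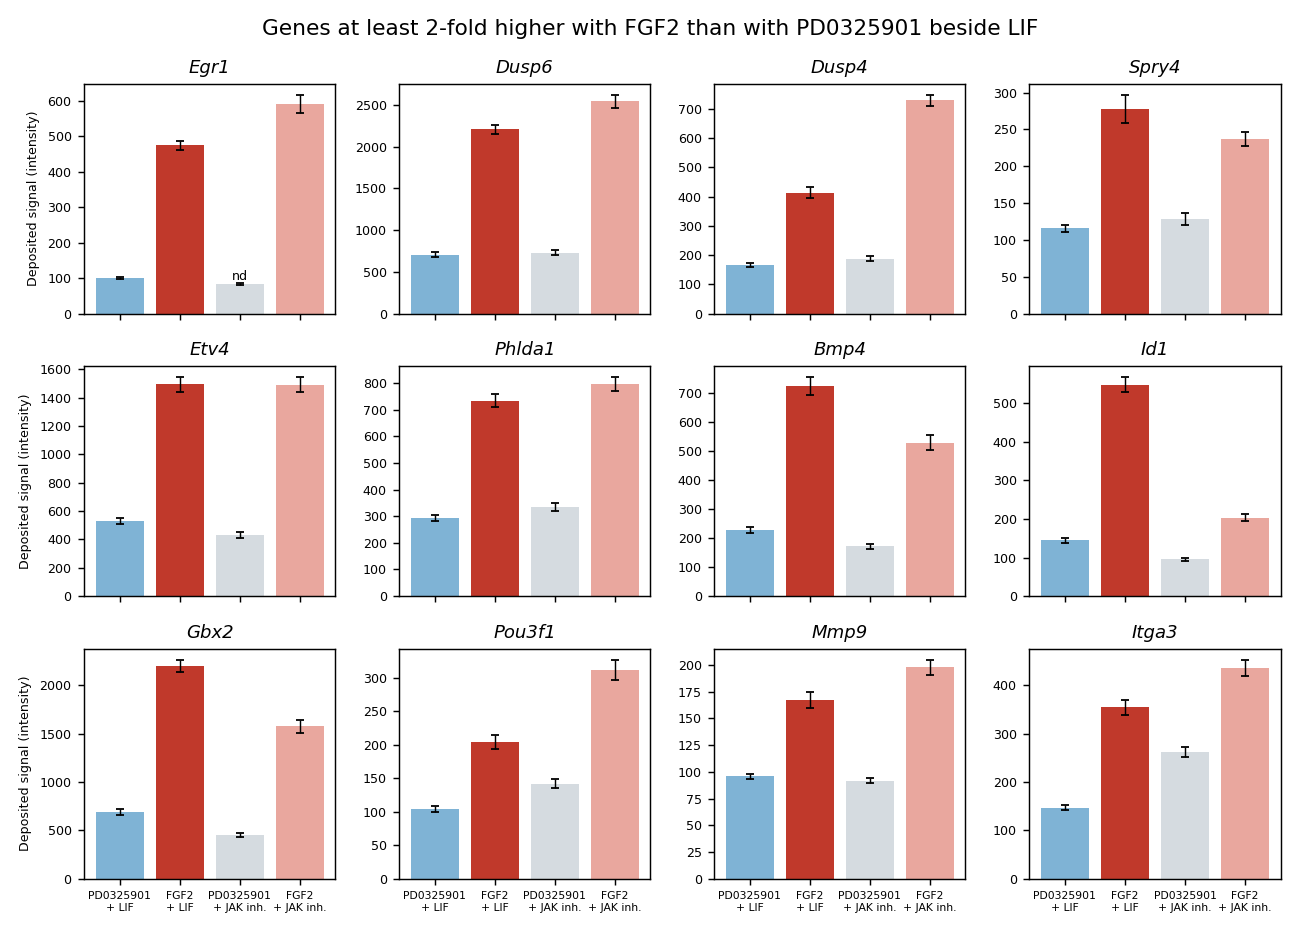
Deposited signal of 12 genes at least 2-fold higher with FGF2 beside LIF, on each of the 4 arrays, with 1 bar an array, bead standard errors as error bars and nd for not detected. In every panel the bar of FGF2 + LIF is above that of PD0325901 + LIF, for Egr1 at 474.6 against 100.6; the arrays are drawn before normalization.

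Bmp4 and Id1 formed a second strong pair. Bmp4 (ILMN_1215252), a secreted ligand of the TGF-beta superfamily, had a signal of 227.3 ± 10.9 with PD0325901 and 724.9 ± 30.8 with FGF2, a log2 difference of 1.82 ± 0.12. Id1 (ILMN_2672190), an inhibitor of basic helix-loop-helix factors and a common target of BMP signalling, had signals of 145.4 ± 6.49 and 548.1 ± 19.6 (2.39 ± 0.13, 5.25-fold). The other BMP targets did not share this size. Id3 stood at 0.37 ± 0.27, Smad6 at 0.20 (0.75 on its other probe), and Id2 at −0.41 with detection only under PD0325901. Bmp7 was 1.94-fold lower (−0.96). The median of the 10 detected members of 20 was 0.00.

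In the Nodal and activin pathway both Lefty genes were lower and an activin gene was higher. Lefty1 (ILMN_1246073), an extracellular inhibitor of Nodal, had a signal of 449.1 ± 15.0 with PD0325901 and 188.4 ± 6.17 with FGF2, 3.58-fold lower with FGF2 (−1.84 ± 0.09). Lefty2, its neighbour in function, stood at −0.82 ± 0.12, with 471.6 ± 28.7 and 329.7 ± 10.8. The Lefty genes are close copies and can share probe signal. Inhba, which encodes an activin subunit, had signals of 105.4 ± 3.83 and 169.1 ± 14.9 (1.21 ± 0.25), and Inhbb stood at 0.36. Nodal itself (−0.04), the receptor gene Acvr2b (−0.02), Smad2 (−0.07) and the co-receptor gene Tdgf1 (0.09) were near 0. Fst, which encodes the activin antagonist follistatin, stood at 0.10, and the median of the 13 detected members was −0.04.

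Naive pluripotency genes went both ways. Of 20 detected members of 22, 4 were at least 2-fold lower (3 with Spic at its bound) and 1 at least 2-fold higher, and 14 of the 20 lay below 0, with a median of −0.23. The 4 lower ones are genes of the ground state. Dppa3 (Stella), a maternal factor that protects DNA methylation marks in the zygote, had a signal of 471.5 ± 22.7 with PD0325901 and 232.2 ± 9.74 with FGF2 (−1.47 ± 0.12). AA467197 stood at −1.37 ± 0.10, with 487.4 ± 19.9 and 251.0 ± 9.52. The homeobox gene Crxos stood at −1.54 ± 0.20, with 170.7 ± 7.63 and 106.5 ± 4.85, and Spic was given above. The transcription factors of the naive network differed by less. Nanog stood at −0.61 ± 0.07 (2588 ± 107 and 1819 ± 51.6) and Klf2 at −0.54 ± 0.08. Klf4 stood at −0.43 ± 0.11, but its further probes ranged from −0.14 to 0.56. Esrrb (0.13 ± 0.08), Tbx3 (0.21), Zfp42 (0.21) and Nr5a2 (−0.11) were close to 0.

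Gbx2 and Klf5 went the other way. The homeobox gene Gbx2 (ILMN_1249766) had a signal of 688.9 ± 29.7 with PD0325901 and 2199 ± 66.1 with FGF2 (1.60 ± 0.08). The zinc finger factor Klf5 had 2630.2 ± 68.0 and 4534 ± 139.8, a log2 difference of 0.71 ± 0.06. The factors shared by naive and primed cells stayed under 1.5-fold, with Pou5f1 at 0.07 ± 0.10 and Sox2 at −0.04. Their other probes gave 0.19 and −0.39. In the list of 11 detected core and general pluripotency genes, 1 passed 2-fold, the RNA-binding protein gene Lin28a (1.07 ± 0.14). Its other probe gave 0.11. Utf1 stood at 0.59, Sall4 at 0.33 and Fbxo15 at −0.58.

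Of the formative and primed epiblast genes, 12 of 21 were detected, with a median of 0.39. The POU factor gene Pou3f1 (ILMN_1233172), which marks the epiblast after implantation, had signals of 103.6 ± 4.47 and 203.6 ± 10.6 (1.70 ± 0.20). Its PD0325901 signal was near the background, and over the alternative settings the difference ranged from 0.91 to 2.19. The de novo DNA methyltransferase gene Dnmt3b stood at 0.77 ± 0.06, from 2538 ± 80.2 with PD0325901 to 4524 ± 99.5 with FGF2, and its cofactor gene Dnmt3l at 0.71 ± 0.07. Their other probes gave 0.54 and 0.59. Otx2, another early epiblast factor, was not higher (−0.20). Sall2 was lower, and of the LIF arrays only that with PD0325901 detected it (at least 1.61-fold). Beside the JAK inhibitor both genes were higher with FGF2, Otx2 at 0.91 and Sall2 at 0.57. Among 10 detected genes of DNA methylation and demethylation, Dnmt1 stood at 0.62, its partner gene Uhrf1 at 0.40 (0.12 on its other probe) and Tdg at 0.21. Gadd45g, a stress-induced gene linked to demethylation, was lower at −1.05 ± 0.10, from 440.5 ± 21.4 to 273.4 ± 8.32.

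Of the defining primitive endoderm markers, Gata4, Sox17, Pdgfra and Foxa2 were detected on neither array. Gata6 stood at 0.80 ± 0.16, with signals of 114.6 ± 4.47 and 162.2 ± 6.63, and Dab2 at −0.61. The laminin chain gene Lama1 was 2.02-fold higher (211.8 ± 9.24 and 407.1 ± 17.6), and the collagen IV gene Col4a1 stood at 0.53. The median of the 10 detected members of 21 was 0.45. Of 9 detected trophectoderm genes, 0 passed 2-fold, with the keratin genes Krt18 at 0.56 and Krt8 at 0.54, and Tfap2c at −0.67. Krt8 (875.6 and 1384) and Tfap2c (1565 and 1094) were bright on both arrays, while Cdx2 and Elf5 were detected on neither array. Mixl1 of the primitive streak and Sox1 and Pax6 of the neuroectoderm were likewise undetected. Gsc was detected only with PD0325901, at least 1.88-fold lower with FGF2. All 10 ES cell markers were detected on both arrays, with a median difference of 0.11.

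LIF targets served to show the shared background. Socs3, the STAT3-induced inhibitor of JAK signalling, had a signal of 971.8 ± 41.6 with PD0325901 and 1186 ± 51.5 with FGF2, and 101.6 ± 4.16 and 133.6 ± 4.40 on the arrays with the JAK inhibitor. Its log2 difference beside LIF was 0.15 ± 0.09. Of 20 detected LIF, JAK and STAT3 genes, 0 passed 2-fold, 1 was at least 1.5-fold higher (Junb) and 1 lower (Ifitm1, an interferon-inducible membrane protein gene, −0.86). Stat3 stood at 0.48, with 0.14 to 0.57 on its other probes, Bcl3 at −0.14 and Lifr at 0.03. Their median was 0.03.

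Of 24 detected genes of adhesion, migration and proteolysis, 6 were at least 2-fold higher, 11 at least 1.5-fold higher and 0 at least 1.5-fold lower (median 0.39). Over all genes kept, 0.724% were at least 2-fold higher and 5.88% at least 1.5-fold higher. The list was written with earlier results of these data known, so its counts are a description only. With the 3 members detected on 1 array set to their bounds, 9 were at least 1.5-fold higher and the median was 0.27. The guidance receptor gene Robo4 (ILMN_2942011) had signals of 113.7 ± 4.63 and 275.9 ± 11.5 (1.94 ± 0.16). Snai3, a zinc finger gene of the Snail family, had 121.1 ± 3.74 and 297.0 ± 13.7 (1.87 ± 0.13). The integrin gene Itga3 (ILMN_2616164), whose product binds laminin, had 146.6 ± 4.95 and 354.3 ± 15.3 (1.63 ± 0.12). The gelatinase gene Mmp9 stood at 1.61 ± 0.17, the junction protein gene Esam at 1.52 ± 0.18 and Plaur, the receptor for urokinase, at 1.04 ± 0.23. The integrin genes Itgb1 (0.85, but −0.70 on its other probe) and Itga5 (0.74) and the membrane protease gene Mmp14 (0.64) lay between 1.5-fold and 2-fold. The members known from epithelial to mesenchymal transition were close to 0, with Snai1 at −0.28, Cdh1 at 0.19, Vim at 0.24 and Zeb1 at 0.00. Robo4, Mmp9 and Snai3 had PD0325901 signals near the background, so their fold differences are sensitive to its correction. Over the alternative settings Mmp9 ranged from 0.75 to 2.38, Robo4 from 1.18 to 2.31 and Itga3 from 1.15 to 1.83. Esam ranged from 0.78 to 2.03 and Plaur from 0.52 to 1.38.

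Promoter sequence was read from RefSeq (GRCm38.p6) as the 250 bases before and 50 after each start, available for 32 of the 57 higher and 31 of the 46 lower genes. The motifs searched on both strands were EGR (GCGNGGGCG), ETS (CCGGAAG), AP-1 (TGANTCA), CRE (TGACGTCA), STAT (TTCNNNGAA) and the CArG box. Different motifs did not overlap in the 3 windows shown, and AP-1, which reads alike on both strands, was counted once. The EGR motif was in 6 of 32 higher and 4 of 31 lower promoters (18.8% and 12.9%), against 10.4% of the 6442 promoters of all genes kept. The AP-1 motif was in 4 of 32 and 5 of 31 (12.5% and 16.1%, against 4.78%), and the ETS motif in 4 and 2 (12.5% and 6.45%, against 19.6%). STAT was in 2 and 1 (6.25% and 3.23%, against 6.61%), and CRE and the CArG box were in 0 of either set, against 3.32% and 1.38%. These are counts of letters in short windows, not binding sites. The promoters of Bmp4 (chr14:46390620-46390919, minus strand), Itga3 (chr11:95076665-95076964, minus strand) and Plaur (chr7:24462233-24462532, plus strand) are printed 5′ to 3′ because each gene was at least 2-fold higher and its window holds a motif. Capitals mark the ETS motif in the first 2 (read on the other strand in Bmp4), and EGR followed by AP-1 in Plaur.
Bmp4: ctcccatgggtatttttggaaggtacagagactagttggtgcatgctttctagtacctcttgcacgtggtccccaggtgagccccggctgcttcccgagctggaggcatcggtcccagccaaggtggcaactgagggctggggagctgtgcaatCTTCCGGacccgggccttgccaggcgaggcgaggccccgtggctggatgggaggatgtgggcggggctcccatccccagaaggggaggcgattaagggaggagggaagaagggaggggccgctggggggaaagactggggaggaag
Itga3: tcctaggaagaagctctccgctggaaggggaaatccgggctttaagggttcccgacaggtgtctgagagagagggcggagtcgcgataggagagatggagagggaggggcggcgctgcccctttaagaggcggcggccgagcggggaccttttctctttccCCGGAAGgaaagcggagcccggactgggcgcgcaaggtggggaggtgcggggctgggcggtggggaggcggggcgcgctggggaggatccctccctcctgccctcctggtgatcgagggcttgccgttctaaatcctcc
Plaur: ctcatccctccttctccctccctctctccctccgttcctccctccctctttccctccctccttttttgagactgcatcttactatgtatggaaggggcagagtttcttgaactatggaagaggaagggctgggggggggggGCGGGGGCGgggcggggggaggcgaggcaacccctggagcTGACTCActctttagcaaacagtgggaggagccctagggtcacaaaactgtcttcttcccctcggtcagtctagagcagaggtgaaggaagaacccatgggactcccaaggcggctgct

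Of the other genes among the 20 highest, Ccdc3, which encodes a secreted protein, had signals of 148.1 ± 5.09 and 414.3 ± 13.1 (1.86 ± 0.10). The iron carrier gene Trf stood at 1.61 ± 0.15, Exoc3l at 1.55, the immunoglobulin superfamily gene Igsf9 at 1.48 and the phosphatase gene Ppm1j at 1.41. Their lowest values over the alternative settings were under 2-fold, at 0.82, 0.87, 0.91 and 0.67 in that order. Rin1, a Ras effector gene detected only with FGF2, was at least 2.09-fold higher. Of 4 detected neuropeptide precursor genes, Vgf stood at 1.15 ± 0.19, with signals of 105.6 ± 4.82 and 165.7 ± 6.16, and Pdyn, detected only with FGF2 (125.7 ± 4.39), was at least 2.01-fold higher. Trh stood at 0.30. Some brightly expressed genes outside the lists also passed 2-fold, chosen here after their values were seen. The actin crosslinker gene Actn4 had 1577 ± 70.3 and 3615 ± 136.0 (1.12 ± 0.09, with 0.81 to 1.22 on its other probes). Heatr1, a gene of ribosome biogenesis, had 1469.9 ± 58.9 and 3328 ± 153.5 (1.07), with 0.64 on its other probe. Tcof1, also of ribosome biogenesis, stood at 1.18, the inositol phosphate kinase gene Itpk1 at 1.18 and Zfp532 at 1.24. Among the 17 genes past 2-fold with further detected probes, all other probes passed 1.5-fold in the same direction in 13. All other probes had the same sign in 16. The exception was the cytolinker gene Plec, whose other probes ranged from −0.73 to 1.06.

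The largest lower differences were in secreted acute-phase, chemokine and matrix genes. Saa3 (ILMN_2772632), an acute-phase apolipoprotein, had a signal of 613 ± 21.4 with PD0325901 and 199.9 ± 8.82 with FGF2 (−2.19 ± 0.11, 4.57-fold). The same gene gave 190.4 ± 9.16 and 203.0 ± 8.83 on the arrays with the JAK inhibitor, so the PD0325901 + LIF array alone was high. The matrix proteoglycan gene Dcn (ILMN_2747959) gave 492.1 ± 20.5 on that array, and 173.1 ± 7.26, 140.4 ± 6.61 and 173.4 ± 5.71 on the other 3 (−2.16 ± 0.12; its other probe −2.18). Thbs2, a matrix glycoprotein gene, was at least 3.99-fold lower with FGF2, the proteoglycan gene Lum at least 3.19-fold, Prelp at least 3.07-fold and Ccn5, a secreted matricellular protein gene, at least 2.88-fold, none of them detected on the FGF2 + LIF array. The collagen gene Col6a1 stood at −1.28 ± 0.19. Of 6 detected acute-phase and chemokine genes, 4 were undetected with FGF2. With those set to their bounds, 4 of the 6 were lower by 1.5-fold and the median was −0.97, against −1.15 from the measured values. Those undetected with FGF2 were kept through the PD0325901 + LIF array alone, so the detection rule largely fixed their direction. Past 2-fold were 3, namely Saa3, the chemokine gene Ccl7 (191.4 ± 9.57 and 118.8 ± 4.59, −1.42 ± 0.17) and Ccl8, at least 2.17-fold lower. Of 18 detected stromal matrix genes, 4 were lower by 2-fold, 7 by 1.5-fold and 0 higher by 1.5-fold, with a median of −0.42. Over all genes kept, 0.584% were lower by 2-fold and 4.14% by 1.5-fold. Both lists were written with earlier results of these data known, so their counts are a description only. Col1a1 stood at −0.55, Bgn at −0.85, Acta2 at −0.47 (−1.36 to −0.77 on its other probes), and Fbln2 at 0.34 (−0.02 on its other probe).

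Of 12 markers of fibroblasts 8 were detected, and 7 of these 8 are members of the stromal list, so their median (−0.42) is no separate measurement. Vim (0.24) and Fbln2 (0.34, but −0.02 on its other probe) were on the higher side. Col1a2, Col3a1 and Postn were detected on neither array, and Fn1 was not analysed here. Beside LIF the summed corrected signal of the 8 was 6881 for PD0325901 and 5614 for FGF2. Beside the JAK inhibitor it was 5887 and 4713, so the sum was lower for FGF2 in both pairs. Its brightest members were Acta2, Sparc and Vim (2856, 2086 and 1128 with PD0325901 and LIF). Beside the inhibitor the markers went both ways. Acta2 stood at −0.62 and Vim at −0.39, and Lum was at least 1.47-fold lower. Dcn (−0.05), Thy1 (−0.03) and Sparc (−0.02) were near 0, and Col1a1 (0.14) and Fbln2 (0.55) were higher. The labels name gelatin as the substrate and no feeder cells, and the part that other cells play in these differences was not tested. In bulk RNA, fewer cells of a type and less RNA per cell cannot be told apart. The PD0325901 + LIF array was the highest of the 4 for 40 of the 46 lower genes (87.0%), and for 62.3% of all genes with a negative difference.

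The water and glycerol channel gene Aqp3 (ILMN_2991272) had 940.1 ± 54.6 with PD0325901 and 425.7 ± 21.6 with FGF2 beside LIF, and 418 ± 27.5 and 258.6 ± 13.7 beside the inhibitor (−1.44 ± 0.12 and −1.41). It was highest on the PD0325901 + LIF array and lowest on that with FGF2 and the inhibitor. The calcium-binding protein gene S100a13 had 342.8 ± 22.7 and 187.3 ± 9.54 (−1.39 ± 0.16), and its relative S100a1 was 1.99-fold lower. Of the other S100 genes, S100a6 stood at 0.50. Jakmip1 stood at −1.31, Mgarp, a mitochondrial protein gene, at −1.25, and Cavin2 was detected only with PD0325901, at least 2.07-fold lower. H2-Bl stood at −1.26 ± 0.14 beside LIF and at −0.79 ± 0.14 beside the JAK inhibitor. Its signals before normalization were 241.6 and 149.0 beside LIF and 280.4 and 245.6 beside the inhibitor. H2-Bl belongs to the class I histocompatibility family, whose copies can share probe signal. Of 7 detected interferon and class I genes, B2m, the light chain of class I molecules, stood at −0.67 and Ifitm1 at −0.86, and 0 passed 2-fold.

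**Figure D3:**
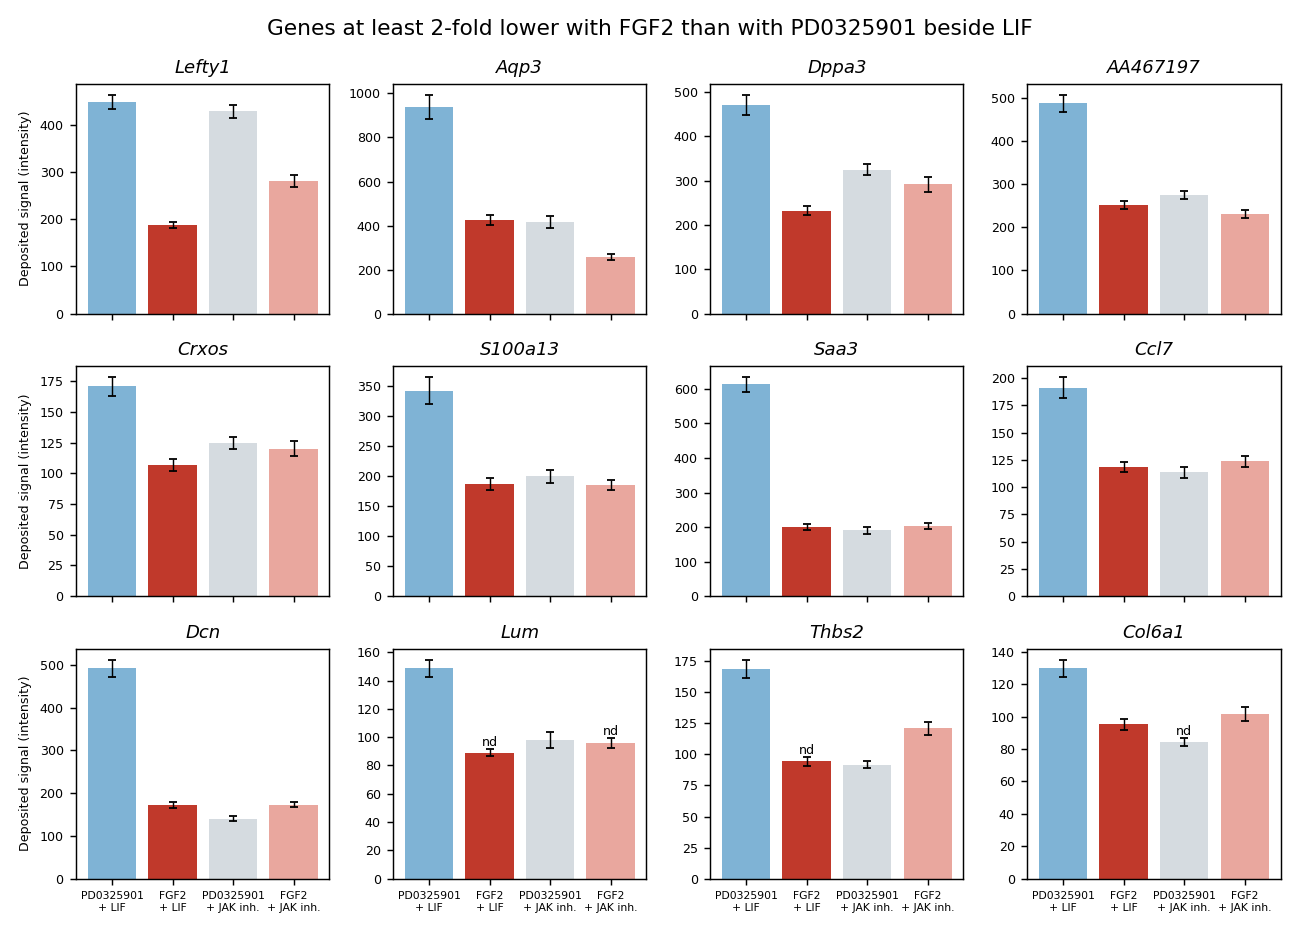
Deposited signal of 12 genes at least 2-fold lower with FGF2 beside LIF, on each of the 4 arrays, with 1 bar an array, bead standard errors as error bars and nd for not detected. The first bar, PD0325901 + LIF, is the highest in all 12 panels, and for Saa3 and Dcn (613 and 492.1) the other 3 bars lie between 140.4 and 203.0.

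The lists of general cell functions stayed near the median of all genes (−0.01), with 0 members past 2-fold in each. Medians were 0.04 for 17 detected G1 cyclins and CDK inhibitors, −0.04 for 15 DNA replication genes, 0.12 for 13 genes around Myc and Max, −0.03 for 17 glycolysis and hypoxia genes, 0.03 for 13 cholesterol synthesis genes, 0.04 for 12 chaperones, 0.01 for 11 Bcl2 family genes, −0.05 for 13 p53 targets and −0.08 for 10 reference genes. The sign of several of these medians changes under alternative settings. Within them, Pdk1, a kinase that holds back pyruvate dehydrogenase, stood at 0.93, Bcl2l11, which encodes the apoptosis inducer Bim, at 0.71 (0.06 to 0.32 on its other probes), and Bik, another such inducer, at −0.87. The cyclin gene Ccnd1 stood at 0.04, Cdkn1a at −0.29 and Actb at 0.49, with −0.38 to 0.54 on its other probes. Of 17 Atf4 response genes, Ddit3 stood at −0.90, Atf4 at −0.56 and the amino acid transporter gene Slc7a5 at 0.70. Of 8 detected Wnt targets, Axin2 was highest at 0.68 and Tcf7l1, a repressor of the naive network, lowest at −0.19. The direction of Tcf7l1 is not settled, since its other probe gave 0.87 and alternative settings gave up to 0.34. Of 11 transporters, the amino acid transporter gene Slc7a7 stood at 0.76 and the nucleoside transporter gene Slc29a1 at 0.66.

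**Figure D4:**
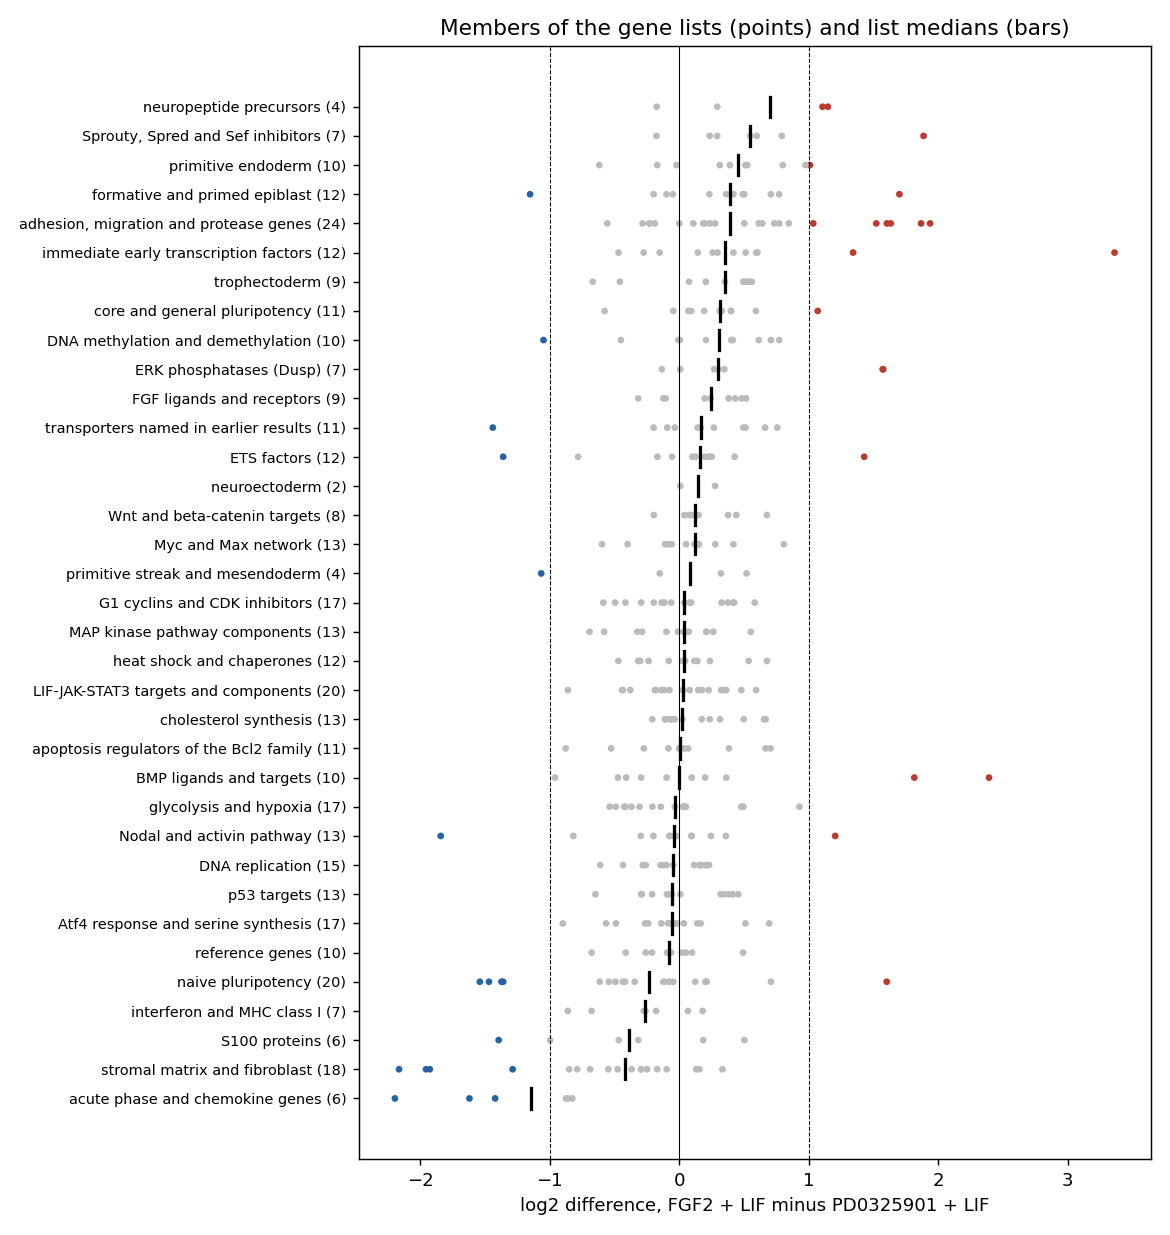
Log2 difference beside LIF (horizontal axis) of each detected member of 35 gene lists, with the number of detected members in brackets, black bars at list medians, and dashed lines at 2-fold. Medians run from −1.15 for acute-phase and chemokine genes to 0.70 for the 4 neuropeptide precursors, and the lists of general cell functions have no member beyond 2-fold. Over the alternative settings the acute-phase median ranged from −1.87 to −0.47 and the neuropeptide median from 0.05 to 0.92.

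The same change of medium was measured beside JAK inhibitor I on a pair of arrays that shared none with the LIF pair. There 23 of 7907 detected genes (0.291%) were at least 2-fold higher with FGF2 and 11 (0.139%) at least 2-fold lower, 34 (0.430%) in all. Over the 7872 genes described here, the counts were 22 (0.279%) and 7 (0.0889%), 29 (0.368%) in all. Of the 57 higher genes, 17 (29.8%) were also at least 2-fold higher beside the inhibitor, which is 77.3% of the 22, and 52 had the same sign. Of the 46 lower genes, 3 (6.52%) were also at least 2-fold lower there, which is 42.9% of the 7, and 35 had the same sign. Across all 7872 genes the differences of both pairs had a Pearson correlation of 0.36. The share of all genes with the same sign in both pairs is not given here. Both FGF2 arrays were above both PD0325901 arrays for 51 of the 57 higher genes (89.5%). This held for 39.2% of all genes with a positive difference beside LIF. Both FGF2 arrays were below both PD0325901 arrays for 33 of the 46 lower genes, and for 41.6% of all genes with a negative difference. The LIF arrays that chose the genes enter these counts. At 1.5-fold, 26 of the 57 and 18 of the 46 passed in the same direction, where 174 (2.21%) of the 7872 genes were higher and 126 (1.60%) lower, 300 (3.81%) in all. The median difference of the 57 was 1.18 beside LIF and 0.55 beside the inhibitor, and that of the 46 was −1.14 and −0.40. Since the genes were taken for their size beside LIF, the smaller values of the other pair are a description only, and the difference between the pairs was not tested.

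By gene, Dusp6 (1.57 and 1.43), Etv4 (1.43 and 1.49), Gbx2 (1.60 and 1.48), Ccdc3 (1.86 and 1.84) and Mmp9 (1.61 and 1.66) had similar log2 differences beside LIF and beside the inhibitor. Id1 stood at 2.39 and 1.56, with lower signals beside the inhibitor (95.3 ± 3.52 and 203.0 ± 9.09). Spry4 stood at 1.89 and 0.87, Itga3 at 1.63 and 0.38 and Lama1 at 1.01 and 0.10. Egr1 and Inhba were not detected with PD0325901 and the inhibitor, and were at least 14.8-fold and 3.00-fold higher with FGF2 there. Among the lower genes, Lefty1 stood at −1.84 and −1.29, Dppa3 at −1.47 and −0.73, Dcn at −2.16 and −0.05, Saa3 at −2.19 and −0.39 and Col6a1 at −1.28 and 0.22.

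**Figure D5:**
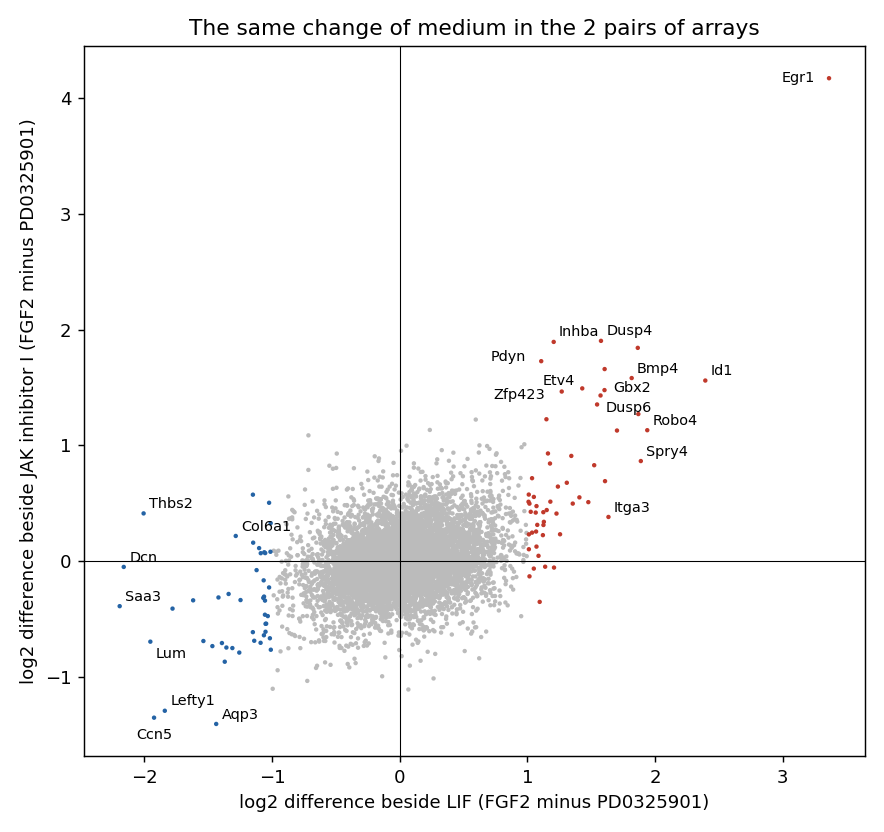
Log2 difference between FGF2 and PD0325901 beside JAK inhibitor I (vertical axis) against that beside LIF (horizontal axis), 1 point a gene, with genes at least 2-fold higher beside LIF in red and at least 2-fold lower in blue. Of the 57 red points 52 lie above 0 on the vertical axis, and of the 46 blue points 35 lie below it. Across all genes drawn, the Pearson correlation is 0.36.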

How the data were processed

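Total RNA (400 ng, DNA-digested on the column) was amplified and carried the label Cy-3, per the labels' protocols. The submitters' processing notes name BeadStudio, with no version. Its settings and a genome build are not stated here. Per the file headers, the authors deposited for each of 25697 probes a signal with its bead standard error (intensities) and a detection p-value. Signals were treated as not yet normalized, since their medians differed (82.0 to 92.8) and their lowest values were 64.4 to 71.2. On the LIF arrays 10677 probes were detected with PD0325901 and 10749 with FGF2, with a median bead error of 4.39% and 4.12% of the signal. The authors also deposited a table of whole-number intensities, used as an alternative; its median was 71 on all 4 arrays, its values rank as the signals do, and how it was background-subtracted and scaled stays unknown.

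Signals were corrected with nec of limma 3.58.1 (R 4.3.3; background from the detection p-values, offset 16), set to log2 and quantile-normalized over 4 arrays; the offset makes the differences of dim genes smaller. Bead errors were carried to log2 with the corrected signal as the divisor. Probe symbols came from the platform annotation, checked by gene ID against RefSeq (23962 of 23978 matched), and 1719 probes had none. The brightest detected probe stood for its gene (2045 genes had several). No test was possible with 1 array a side. The steps were tested on simulated data. Alternatives were other backgrounds, normalizations, filters, probe rules and thresholds, and the authors' table.

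Genes were named by rule: the 20 largest differences each way past 2-fold, members of 35 lists past 2-fold, the 3 members at each end of a list, and a set of 51 chosen by name; others are named in their sentences or stand beside list members. The members, lists and rules were chosen with earlier results of these data known.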

Additional observations from a re-analysis of the deposited data

Results flagged for a closer look

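For 6 genes the measured differences between FGF2 and PD0325901 had opposite directions beside LIF and beside the JAK inhibitor, each at 1.5-fold or more. Only Enpp4 was detected on all 4 arrays. With 1 array a condition the difference between the pairs was not tested. Enpp4 (−0.74 beside LIF and 0.62 beside the inhibitor), Fam171a2 (−0.72 and 0.79) and Rnf128 (−0.72 and 1.09) were lower with FGF2 beside LIF, as log2 differences. Rhbdf2 (0.62 and −0.84), Aym1 (0.64 and −0.66) and Xylb (0.68 and −0.61) were higher. The values of the other 5 rest on arrays that did not detect the gene. Against the detection limit, Fam171a2 differed at least 1.37-fold beside LIF and 1.33-fold beside the inhibitor, Rnf128 at least 1.55-fold and 1.48-fold, Aym1 at least 1.13-fold and 1.11-fold and Xylb at least 1.24-fold and 1.47-fold. Rhbdf2 was detected on both LIF arrays, and was at least 1.73-fold lower beside the inhibitor.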

How the results depend on the processing

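The 103 genes (57 higher, 46 lower) became 26 (19 and 7) without background correction, 38 (25 and 13) with an offset of 50, and 496 (259 and 237) with the authors' value table, in which 86 of the 103 remained. Median scaling gave 92 higher and 27 lower, no normalization between arrays 110 and 25, and detection on both arrays left 27 lower. The threshold of 1.5-fold gave 789 (463 and 326). Of 50 named genes past 2-fold, 20 passed without background correction and 31 with an offset of 50. Over 9 settings, 24 genes stayed past 2-fold in the same direction in every one (17 higher and 7 lower), and 0 named genes past 2-fold changed sign. Of 1915 values of named genes, 160 moved by more than their bead error interval. Of 315 list medians, 96 moved by more than 0.1. The median of 22 lists kept its sign in every setting and that of 13 crossed 0; 12 of the 13 had a median under 0.1 in size, and the other was that of interferon and class I genes (−0.26), at 0.020 without a detection filter, where undetected members enter. Beside the JAK inhibitor, median scaling turned 34 genes (23 and 11) into 72 (67 and 5). Other causes of these moves were not tested. No paired analysis was possible because each condition has 1 array. Signal near the background limits the 30 of the 103 genes that were detected on only 1 array. It also limits some genes detected on both, such as Mmp9 and Egr1, whose PD0325901 signals were low.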
